A study of Mus musculus with 47 samples.

Results

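Cxcl9, Cxcl10 and Cxcl11 encode the 3 known ligands of the chemokine receptor CXCR3, and they were chosen by name. They are 3 of the 51912 genes in the count tables of the bone marrow-derived macrophages (BMDMs) and 3 of the 23772 genes in the longest table of the Raw264.7 lines, and all 3 were listed in every RNA-seq table. The study asked how the chromatin reader ZMYND8 shapes the response of mouse macrophages to bacterial lipopolysaccharide (LPS), and 12 of its 47 samples are the RNA-seq libraries described here. Of these, 6 came from BMDMs of C57BL/6 mice, grown for 5 days with M-CSF at 20 ng/ml and then left untreated (NT), given LPS at 100 ng/ml for 6 h, or given the type 2 cytokine IL-4 at 20 ng/ml for 6 h. WT mice carried Zmynd8 alleles with loxP sites around exons 6 and 7 and no Cre, and the Zmynd8 cKO mice carried the same alleles with Cre driven by Lyz2, a myeloid gene. The other 6 libraries came from CRISPR-edited derivatives of Raw264.7, a macrophage-like mouse line, and the labels give their strain as C57BL/6, although Raw264.7 was established from a BALB/c mouse. All of the first set lacked endogenous Zmynd8, and this knockout was left without a construct (Zmynd8 KO) or received wild-type Zmynd8 (WT Zmynd8) or the D/E-A mutant, in which the acidic residues of the disordered region are alanine. The second set lacked the NF-kB subunit p65, encoded by Rela (p65 KO), or had this knockout and then received wild-type p65 (WT p65) or p65 with 1 lysine changed to arginine (K122R), and all 3 were labelled as LPS-treated. For the Zmynd8 lines the labels give no treatment, the study describes its WT Zmynd8 and D/E-A libraries as LPS-treated, and the treatment of the Zmynd8 KO library was not given in the sources used here.

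Every condition had 1 library, and each BMDM library was a mixture of 3 biological replicates, so no spread between replicates of a condition could be measured and conditions were compared without a test. A fit of genotype over the 3 treatments of the BMDMs, which would take its spread from how the genotype difference varied between treatments, was not run. The limits printed with levels and folds are exact 95% binomial limits (Clopper-Pearson) on the reads, which cover counting error only and are far narrower than the spread between animals or cultures can be. Libraries held 22597408 to 28386612 counts in BMDMs and 15127110 to 21042628 reads in the Raw264.7 lines. Levels are given as reads or as CPM, which is reads scaled to the library total, and a fold is a plain ratio of CPM or of deposited values. A gene was called higher or lower where log2(value + 1) differed by a fold of at least 1.2, a size taken from the study's methods without their p-value cutoffs. In bulk RNA, fewer cells of a type and less RNA per cell cannot be told apart.

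CXCR3 sits on activated T cells and natural killer cells, and its ligands draw these cells into inflamed tissue. Macrophages make the ligands when interferon-beta or interferon-gamma binds its receptor, and NF-kB adds to the induction of Cxcl10 after LPS. Cxcl9 is the ligand that depends most on interferon-gamma. In the C57BL/6 genome Cxcl11 has a shifted reading frame, so its transcript is made but does not encode the full chemokine.

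The 3 genes lie side by side on chromosome 5 on the minus strand of GRCm38 (mm10), each with 4 exons. Cxcl9 (ENSMUSG00000029417) spans chr5:92321331-92328079, Cxcl10 (ENSMUSG00000034855) chr5:92346638-92348889 and Cxcl11 (ENSMUSG00000060183) chr5:92359544-92363296. The gaps between them are 18558 and 10654 bases, and the whole cluster covers 41966 bases. RefSeq annotates Cxcl9 and Cxcl10 as protein-coding and Cxcl11 as a transcribed pseudogene. The first 60 bases of the Cxcl11 reading frame, chr5:92363155-92363214 on the minus strand of GRCm38, are shown because they hold the shift. Capitals mark the 2 bases at positions 92363177 to 92363178, after 36 coding bases, that the GENCODE coding model has to skip in order to stay in frame.

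Cxcl11, start of the reading frame: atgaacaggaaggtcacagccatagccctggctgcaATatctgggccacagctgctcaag

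The RefSeq promoter table of GRCm38.p6 held 2 of the 3 genes, Cxcl9 and Cxcl10, and the 250 bases before each start are shown. The Cxcl9 window is chr5:92328080-92328329 and the Cxcl10 window chr5:92348890-92349139, both on the minus strand. Capitals mark every match to 4 motifs searched on both strands: the core of the interferon-stimulated response element (GAAA, any 2 bases, GAAA), the gamma-activated site (TTCNNNGAA), the TATA box (TATAAA) and the NF-kB consensus.

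Cxcl9 upstream: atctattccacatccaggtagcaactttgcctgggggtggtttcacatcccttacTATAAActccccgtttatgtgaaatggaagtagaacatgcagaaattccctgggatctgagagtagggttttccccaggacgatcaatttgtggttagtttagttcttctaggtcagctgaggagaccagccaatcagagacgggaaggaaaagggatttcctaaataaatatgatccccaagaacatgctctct

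Cxcl10 upstream: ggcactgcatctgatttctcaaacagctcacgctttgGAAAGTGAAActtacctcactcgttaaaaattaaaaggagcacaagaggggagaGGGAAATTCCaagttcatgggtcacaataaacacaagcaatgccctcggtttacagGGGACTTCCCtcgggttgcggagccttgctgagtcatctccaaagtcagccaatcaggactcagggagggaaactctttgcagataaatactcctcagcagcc

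The Cxcl10 window held 1 response element core, GAAAGTGAAA, at 213 to 204 bases before the start, and 2 NF-kB matches, GGGAAATTCC at 159 to 150 and GGGACTTCCC at 103 to 94 bases before it. The Cxcl9 window held none of these letters, and its single match was a TATAAA at 195 to 190 bases before the start. Neither window held TTCNNNGAA. Among 32851 RefSeq promoters of the same length, 2.98% held the response element core, 7.02% the gamma-activated site, 3.90% the NF-kB consensus and 12.4% TATAAA. A list of 20 interferon-response genes had a promoter in the table for 15, and 9 of these held the core, Gbp2, Ifit1 and Rsad2 among them, 3 held TTCNNNGAA and 2 held the NF-kB consensus. A match is a description of letters and no evidence of a bound factor, and a window without a match may hold elements that were not searched. The part of these letters in the levels below was not tested.

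Before the ligands were read, the libraries were compared with their labels. Each BMDM library held 6 of 6 macrophage markers, with a summed level of 6133 to 9444 CPM, and the B cell markers together reached 10 reads at most. Other lists reached higher sums. Their maxima were 29.1 CPM for T cell, 21.6 for NK cell, 13.9 for dendritic cell and 426 for neutrophil markers. The Zmynd8 gene as a whole had 1842 to 3944 counts in the BMDM libraries and was not consistently lower in cKO (WT and cKO had 2284 and 1842 without treatment, 1967 and 2033 with LPS, and 3636 and 3944 with IL-4), and since exons 6 and 7 alone are floxed a whole-gene count does not check the deletion. Among the Raw264.7 lines, Zmynd8 had 485 reads in WT Zmynd8, 497 in D/E-A and 121 in Zmynd8 KO. Rela had 1601 reads in WT p65, 5850 in K122R and 765 in p65 KO. These orders follow the labels, with more Rela in K122R than in WT p65.

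The 3 libraries labelled as Zmynd8 lines stood apart from the p65 lines. Their 6 neutrophil markers, S100a8 and Ly6g among them, summed to 9249 CPM in WT Zmynd8, 3806 CPM in D/E-A and 6164 CPM in Zmynd8 KO, against 0.180 to 0.264 CPM in the p65 lines. Only 2 of the 6 were listed for the p65 lines, so that sum covers fewer genes. Xist, the RNA of the inactive X chromosome, had 7109 to 8467 reads in the Zmynd8 lines and 0 to 3 reads in the p65 lines, although Raw264.7 was established from a male mouse. In BMDMs Xist also differed between genotypes, at 740 CPM in WT and 323 CPM in cKO without treatment, 246 and 429 CPM with LPS, and 1108 and 1057 CPM with IL-4, and the part of the mixed animals in the BMDM differences was not tested. B cell markers summed to 80.4 to 109 CPM in the Zmynd8 lines and to 2 to 4 reads in the p65 lines, where 2 of 3 were listed. The Zmynd8-line libraries are therefore named by their labels below, and the part of other cells in their values was not tested.

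In untreated BMDMs the ligands were low, with 109 counts of Cxcl9 in WT and 41 in Zmynd8 cKO, 667 and 196 of Cxcl10, and 19 and 2 of Cxcl11. All 3 ligands were lower in Zmynd8 cKO than in WT, where 29.0% of the 12463 genes tested were lower. Cxcl10 went from 25.4 CPM to 8.67 CPM, which is 2.93-fold lower (limits 2.5 to 3.46), and 0.900% of the genes tested had a lower log2 difference. Cxcl9 went from 4.16 CPM to 1.81 CPM, 2.29-fold lower (limits 1.59 to 3.37). For Cxcl11 the 2 counts left gave 8.19-fold lower with limits from 1.98 to 72.5. The counting limits of the 2 genotypes did not overlap for any of the 3 ligands in NT, and how many other genes shared this was not counted.

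Genes that answer interferon were lower alongside the ligands in untreated cKO cells. Of the list of 20 interferon-response genes, 19 were tested and 19 were lower, with a median log2 difference of -1.77 against -0.01 over all genes tested. Ifit2, an antiviral RNA-binding protein, was the lowest at -3.13 (18283 counts in WT, 1784 in cKO), and Ciita, the activator of MHC class II genes, the least changed at -0.40 (36 and 18 counts). Irf1, which is induced by interferon and binds the promoters of its targets, went from 1546 to 719 counts, 1.85-fold lower. Over the 22 genes of the route from LPS to interferon signalling, from the receptor genes Tlr4, Cd14 and Ly96 to Irf9 and Irf8, 20 were tested, 12 were lower and 3 were higher (median -0.39). Irf7, which drives interferon genes and is itself interferon-induced, was the lowest of them at -1.80, and Cd14, the co-receptor of LPS, the highest at 1.01.

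Neither interferon gene was at a readable level in NT, since Ifnb1 had 0 counts in both genotypes and Ifng had 0 or 1 count in every BMDM library. The feedback genes Socs1, Socs3 and Usp18 had 2 lower of 3, with Usp18, a protease that blunts interferon receptor signalling, lowest at -1.25. Of the 6 NF-kB genes, Relb was higher (0.39), Rel was lower (-0.77) and 4 were not called. Rela itself had 2178 and 2195 counts and a log2 difference of 0.22. Macrophage markers moved in the same pair of libraries, with 4 of 6 lower, 1 higher (Cd68, 0.44) and Mertk lowest at -1.27, while their summed level was 7106 and 7017 CPM.

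After LPS the ligands were far higher, and the genotypes held similar levels. Cxcl9 had 59080 counts in WT and 54981 in cKO, Cxcl10 71192 and 71983, and Cxcl11 6184 and 5675. None of the 3 was called, where 35.9% of the 12386 genes tested were called in either direction. In CPM, cKO over WT was 0.989 for Cxcl9 (limits 0.978 to 1.00), 1.07 for Cxcl10 (1.06 to 1.09) and 0.975 for Cxcl11 (0.941 to 1.01). The counting limits of Cxcl10 leave out 1 by this narrow margin, but they say nothing of the spread between mice, so it cannot be said whether a difference of this size would repeat. By contrast, the study names Cxcl10 among the genes upregulated in cKO BMDMs with LPS, and it also reports RT-qPCR of LPS-induced genes. It describes WT and cKO as alike in transcriptome in NT and with IL-4. Its statistics and RT-qPCR values were not used here.

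**Figure D1:**
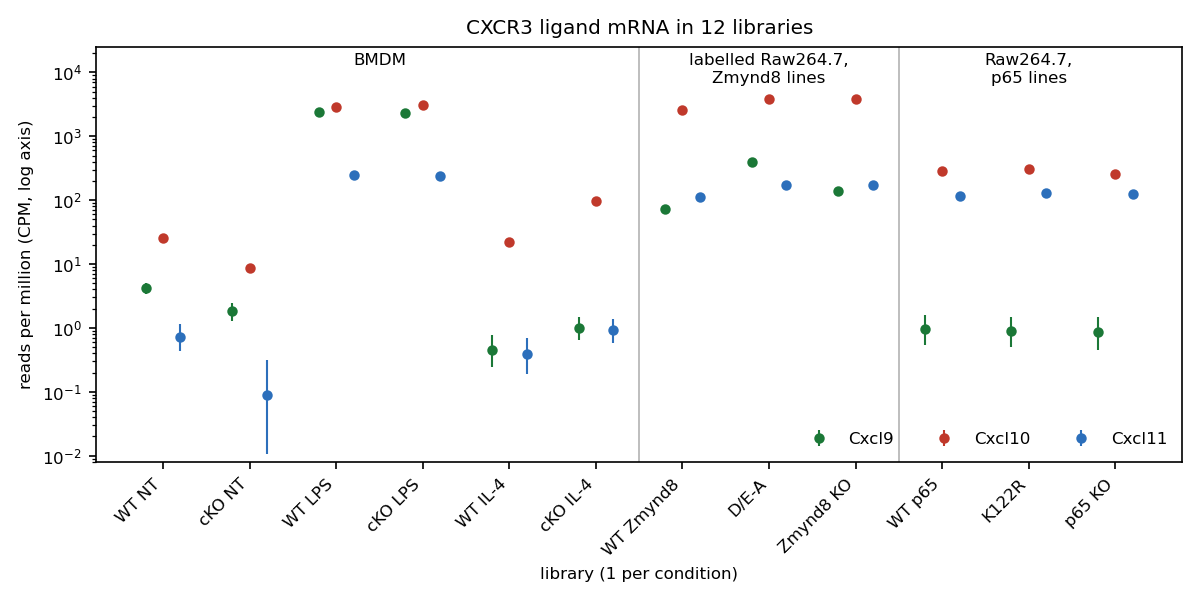
Level of Cxcl9, Cxcl10 and Cxcl11 in each of the 12 libraries, in CPM on a log axis, with 1 point per library and bars for the 95% counting limits. Among the BMDM libraries the 2 with LPS lie together at the top for every ligand (2372 and 2347 CPM for Cxcl9), the cKO point is below the WT point in NT and above it after IL-4, and Cxcl9 is near 1 CPM in the p65 lines.

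Most interferon-response genes also held similar levels after LPS. Of the 20 genes, 17 were not called, Ciita was higher (0.45) and 2 were lower, Isg15 (-0.27), a ubiquitin-like modifier, and Ido1 (-1.08), a tryptophan-degrading enzyme with 86 and 26 counts. Ifnb1, which encodes interferon-beta and was at 0 counts in both NT libraries, had 61 counts in WT LPS and 28 in cKO LPS, 2.05-fold lower (limits 1.29 to 3.33). Irf1 had 19208 and 18167 counts and was not called. Among the 6 NF-kB genes 4 were higher in cKO (3 with the median ratio or TMM), led by Nfkb1 at 0.50, and none was lower, where 22.6% of all genes tested were higher.

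After IL-4 the genotypes stood in the opposite order to NT. Cxcl10 had 630 counts in WT and 2556 in cKO, or 22.2 CPM and 97.8 CPM, a fold of 4.41 (limits 4.04 to 4.82), and 99.81% of the genes tested had a lower log2 difference. Cxcl9 had 13 and 26 counts, a fold of 2.17 (1.08 to 4.61; the log2 difference was 0.45 from counts and 1.55 from deposited TPM), and Cxcl11 had 11 and 24 counts, a fold of 2.37 (1.12 to 5.36). All 3 were called higher, where 17.3% of the 13245 genes tested were higher. For Cxcl9 and Cxcl11 the levels stayed under 1 CPM in both genotypes, and their limits reach close to 1.

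The interferon-response genes moved the same way after IL-4, with 18 of 19 tested higher in cKO, 1 lower and a median of 1.19 against 0.01 over all genes. Gbp5, an interferon-induced guanylate-binding protein, was highest at 1.84 (687 counts in WT, 2330 in cKO), and Ciita was the gene that was lower, at -0.59. Irf1 had 3279 and 3583 counts and was not called. Over the route from LPS to interferon 4 of 20 tested genes were called higher and 2 lower (median 0.04), and Cd14 was again highest at 1.01. All 3 feedback genes were higher, led by Socs3 at 1.68. Neutrophil markers were at 2.14 to 3.90 CPM summed in the NT and LPS libraries but at 306 CPM in WT IL-4 and 426 CPM in cKO IL-4, with 5 of 6 above 3 counts. Their part in the IL-4 values was not tested.

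**Figure D2:**
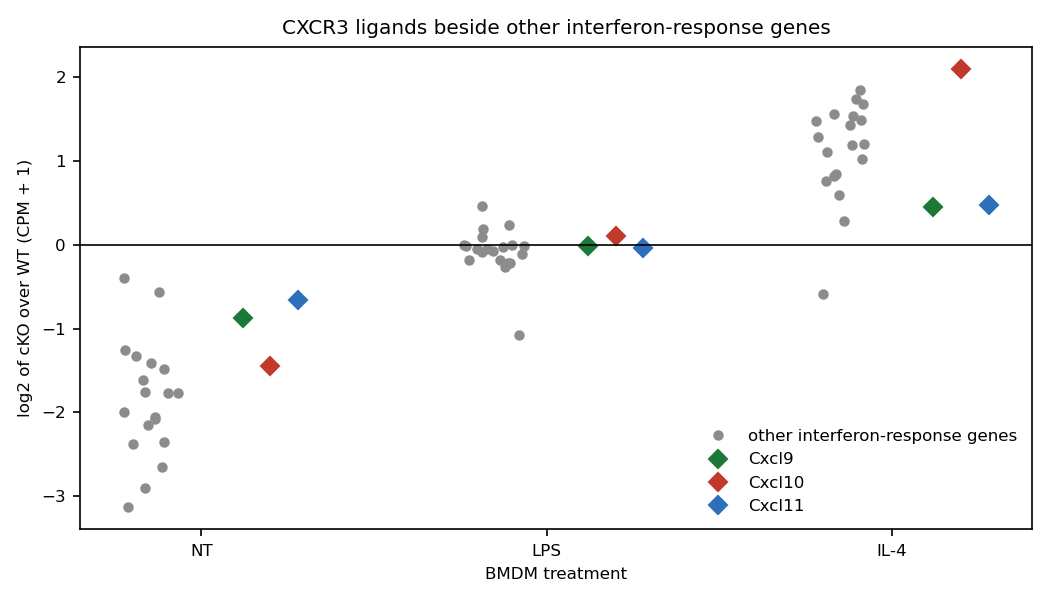
The log2 difference of cKO and WT BMDMs, log2(CPM + 1), for the interferon-response genes and the 3 ligands in NT, LPS and IL-4, with 1 point per tested gene and 0 as the line of no difference. The list lies below 0 in NT (median -1.77), near 0 after LPS (median -0.05) and mostly above 0 after IL-4 (median 1.19), and the ligands lie on the same side as the list's median in NT and IL-4.

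Seen as responses to treatment, every ligand was higher with LPS in both genotypes. These comparisons set together libraries from separately deposited tables, which share a count scale. The labels number the IL-4 libraries apart from the NT and LPS libraries. Whether all were prepared together was not given in the sources used here. In WT the fold of LPS over NT was 570 for Cxcl9 (limits 473 to 695), 112 for Cxcl10 (104 to 121) and 343 for Cxcl11 (219 to 569), and 21.7% of the 12813 genes tested were higher. In cKO the corresponding folds were 1293 (953 to 1802), 354 (308 to 410) and, from 2 counts in NT, 2737 (757 to 22603), where 25.0% of 12666 genes were higher. The larger folds in cKO stand on the lower NT levels, since the LPS levels were alike. The whole table shifted down against LPS, with a median log2 difference over all genes of -0.58 in WT and -0.55 in cKO, so that relative to this median the ligands rose further than the folds show. Some markers of other cells were higher with LPS as well. The 4 NK cell markers summed to 0.687 CPM in WT NT and 21.6 in WT LPS, and to 0.266 and 19.2 CPM in cKO, with 1 of 4 above 3 reads in either LPS library, and the 1 that was tested, Klrk1, was higher by log2 4.02 in WT and 4.33 in cKO. The 5 dendritic cell markers summed to 1.64 and 10.9 CPM in WT and to 0.664 and 13.9 CPM in cKO, with Xcr1 (2.02 in WT, 2.65 in cKO) and Clec9a (1.58 and 2.45) higher. T cell markers fell from 29.1 to 16.3 CPM in WT and from 25.5 to 13.3 CPM in cKO, and B cell markers stayed at 10 reads or fewer. The part of these markers in the LPS values was not tested.

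All 20 interferon-response genes were higher in WT LPS than in NT, with a median of 3.72 and a range from 1.24 (Oasl2) to 6.94 (Iigp1, an interferon-induced GTPase), and Cxcl9, Cxcl10 and Cxcl11 had log2 differences of 8.85, 6.76 and 7.18. Socs1, the feedback inhibitor of interferon signalling, went from 128 to 7350 counts and Irf1 from 1546 to 19208. The receptor gene Cxcr3 had 116 and 84 counts (log2 -0.31), which lies above the median of all genes, and the protease gene Dpp4, whose product clips these chemokines, went from 1 to 51 counts. Ackr3, a scavenger receptor of CXCL11, had 0 counts in all 6 BMDM libraries.

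The ligands differed among themselves in IL-4 against NT. In WT, Cxcl9 fell from 109 to 13 counts, 9.08-fold lower (limits 5.09 to 17.6), and Cxcl11 had 19 and 11 counts (log2 -0.31). Cxcl10 had 667 and 630 counts and a log2 difference of -0.19, which did not reach the call, and 23.1% of the 13090 genes tested were lower. In cKO, Cxcl10 went from 196 to 2556 counts, a fold of 11.3 (limits 9.75 to 13.1), and Cxcl11 from 2 to 24 counts, a fold of 10.4 (2.58 to 90.6), while 44.7% of 12966 genes were higher. Cxcl9 went from 41 to 26 counts in cKO, 1.82-fold lower (limits 1.09 to 3.10), but deposited TPM turned this direction, with a log2 difference of -0.50 from counts and 1.03 from TPM. The interferon-response list had 14 of 19 lower in WT IL-4 against NT (median -1.35, Rsad2 lowest at -3.08) and 19 of 19 higher in cKO (median 1.37, Gbp5 highest at 4.02). T cell markers fell from 29.1 to 5.14 CPM in WT and from 25.5 to 3.94 CPM in cKO. Dendritic cell markers rose from 1.64 to 5.53 CPM and from 0.664 to 5.47 CPM. Of 6 macrophage markers 2 were higher and 2 lower in WT (Fcgr1 lowest at -2.62), and 4 were higher and 2 lower in cKO. Their part in these values was not tested.

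In WT the Cxcl10 call depended on the scaling, since it was lower with the median ratio (-0.33), TMM (-0.36) and deposited TPM (-0.27). Ciita was the highest interferon-response gene in WT IL-4, at 3.31. Set against IL-4, LPS gave folds of 5180 for Cxcl9, 129 for Cxcl10 and 641 for Cxcl11 in WT (19.7% of 13236 genes higher) and of 2358, 31.4 and 264 in cKO (18.8% of 13140 genes higher). The Cxcl9 size in cKO depended on the measure, with a log2 difference of 10.2 from counts and 8.41 from deposited TPM. The Cxcl10 fold was the smallest of the 3 in both genotypes, and was smaller in cKO, where the IL-4 level was higher.

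Ordered by level over the 6 BMDM libraries, the 3 ligands differed in where IL-4 stood by CPM. Cxcl9 fell from LPS (2372 CPM in WT, 2347 CPM in cKO, limits overlapping) to WT NT (4.16), cKO NT (1.81), cKO IL-4 (0.995) and WT IL-4 (0.458), and the limits of the last 3 overlapped from neighbour to neighbour. Cxcl10 went from cKO LPS (3072 CPM) and WT LPS (2859) to cKO IL-4 (97.8), WT NT (25.4), WT IL-4 (22.2) and cKO NT (8.67), with overlap between WT NT and WT IL-4 alone. For Cxcl11, the 2 LPS libraries (248 and 242 CPM, overlapping) stood over 4 libraries at 0.919 CPM or lower, in which each neighbour overlapped the next. By deposited TPM the Cxcl9 order turned, with 2.67 in cKO IL-4, 2.2 in WT NT, 0.8 in cKO NT and 0.25 in WT IL-4, so that cKO IL-4 then stood next after the LPS libraries for each ligand.

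Among the Raw264.7 libraries the 3 labelled as Zmynd8 lines had the higher Cxcl9 and Cxcl10 levels. For Cxcl9 the order was D/E-A (397 CPM), Zmynd8 KO (139) and WT Zmynd8 (72.8), with no overlap of limits, and then the 3 p65 lines at 0.859 to 0.958 CPM, which overlapped. Cxcl10 was at 3840 CPM in D/E-A and 3836 in Zmynd8 KO, which overlapped, at 2555 in WT Zmynd8, and at 262 to 306 CPM in the p65 lines. Cxcl11 stayed within a narrow range in all 6, from 113 CPM in WT Zmynd8 to 174 CPM in D/E-A, and WT Zmynd8 overlapped WT p65 (117 CPM). The p65 lines thus had about as much Cxcl11 as the Zmynd8 lines with 15 or fewer reads of Cxcl9, but the sets also differ in the markers given above and cannot be compared as treatments.

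Read against exon length, Cxcl10 was the leading ligand in each of the 12 libraries. Its share of the summed level of the 3 ligands, in CPM per kilobase of RefSeq exon, was 92.5% in WT NT and 92.1% in cKO NT, 98.1% and 99.0% after IL-4, and 72.8% and 74.4% after LPS. The LPS libraries were thus the BMDM libraries with the most Cxcl9, at 22.9% of the summed level in WT and 21.5% in cKO, against 5.73% and 7.30% in NT and 0.767% and 0.382% after IL-4. Cxcl11 held 0.638% to 4.34% in BMDMs.

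Within a library the ratio of Cxcl10 to Cxcl9 per length was 3.18 in WT LPS and 3.45 in cKO LPS, 16.1 and 12.6 in NT, and 128 and 259 after IL-4. In the Zmynd8 lines it was 92.6 in WT Zmynd8, 72.9 in Zmynd8 KO and 25.5 in D/E-A, and in the p65 lines 780 to 897. The sizes depend on the lengths used, with 1.61 in WT LPS, 8.20 in WT NT and 64.9 in WT IL-4 for GENCODE lengths, and with deposited TPM the order of the IL-4 libraries turned, at 151 in WT and 61.7 in cKO. Cxcl11 held 2.91% of the summed level in each of the 3 Zmynd8 lines and 22.1% to 24.8% in the p65 lines. Cxcl10 also came first with GENCODE exon lengths, but the order of Cxcl9 and Cxcl11 turned with the lengths used in some libraries, for example in WT IL-4, where Cxcl9 held 0.767% with RefSeq and 1.5% with GENCODE lengths.

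**Figure D3:**
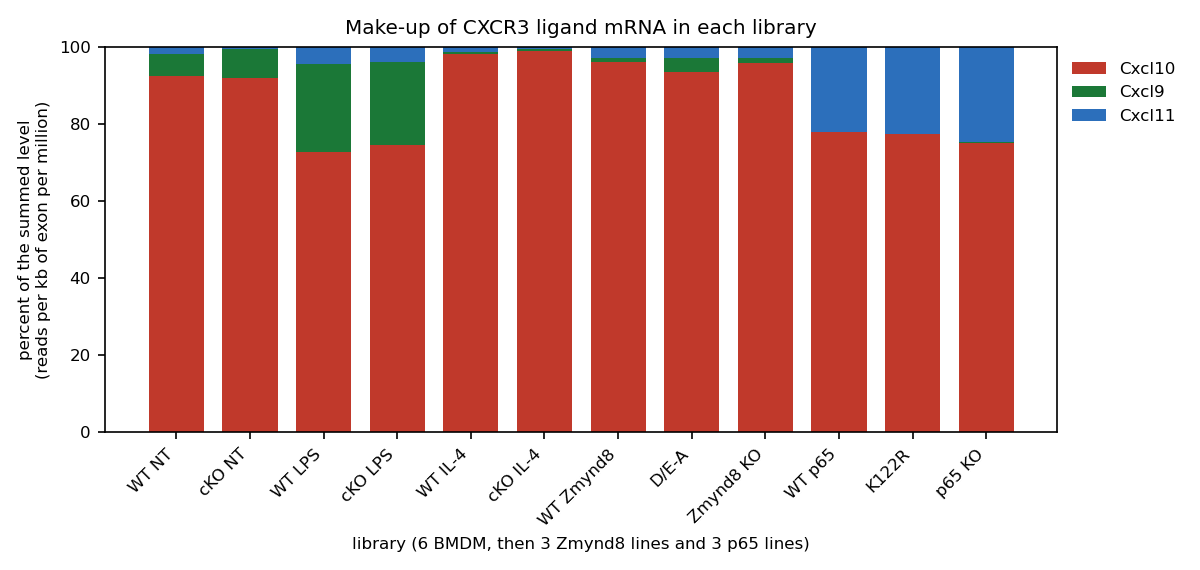
Share of Cxcl9, Cxcl10 and Cxcl11 in their summed level per library, in percent of CPM per kilobase of RefSeq exon, as stacked bars from 0. Cxcl10 fills most of every bar, Cxcl9 is largest in the 2 LPS libraries of BMDMs (22.9% and 21.5%), and Cxcl11 in the p65 lines (22.1% to 24.8%).

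In the libraries labelled as Zmynd8 lines, every ligand was higher without wild-type Zmynd8. Both comparisons below share the WT Zmynd8 library, so its own deviation enters both. Cxcl9 had 1339 reads in WT Zmynd8, 7114 in D/E-A and 2921 in Zmynd8 KO, which is 5.57-fold higher in D/E-A (limits 5.25 to 5.90) and 2.01-fold higher in Zmynd8 KO (1.88 to 2.14). Cxcl10 had 47011, 68856 and 80723 reads, 1.53-fold (1.52 to 1.55) and 1.58-fold higher (1.56 to 1.60). Cxcl11 had 2073, 3123 and 3578 reads, 1.58-fold and 1.59-fold higher. All 3 were called in both comparisons, where 36.7% of the 12771 genes tested were higher in D/E-A and 33.8% of 21302 in Zmynd8 KO.

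Cxcl9 had the largest difference of the 3 in D/E-A, with 99.95% of the genes tested below its log2 difference of 2.48. Set directly against Zmynd8 KO, the D/E-A library had 2.85-fold more Cxcl9 (limits 2.73 to 2.98) and about equal Cxcl10 (0.998) and Cxcl11 (1.02), neither called, where 46.1% of 12523 genes were called in either direction. The neutrophil markers were lower in D/E-A than in WT Zmynd8 for 6 of 6 genes and in Zmynd8 KO for 4 of 6, and the macrophage markers were higher for 6 of 6 in both, with sums of 2184 CPM in WT Zmynd8, 3690 in D/E-A and 2943 in Zmynd8 KO. Of the 5 T cell markers 3 were lower and 1 was higher (Cd4, 0.51) in Zmynd8 KO (median -2.69), and 1 was lower and 0 higher in D/E-A (median -0.04). Of the 5 dendritic cell markers 4 were lower and 1 was higher (Clec9a, 1.42) in D/E-A (median -0.40), and 1 was lower and 2 were higher in Zmynd8 KO (median 0.06), Clec9a most at 1.34. Of the NK cell markers 1 of 1 tested was higher in D/E-A, and 1 of 3 was higher and 1 lower in Zmynd8 KO. Of the 3 B cell markers 1 was higher in D/E-A, and 1 was higher and 2 were lower in Zmynd8 KO. The ribosomal RNA gene Rn18s-rs5 took 13.7%, 6.50% and 11.1% of the reads of WT Zmynd8, D/E-A and Zmynd8 KO. The part of cell make-up and RNA composition in the ligand differences was not tested.

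Many genes of the interferon pathway were also higher in these lines. Of all genes tested, 36.7% were higher in D/E-A and 33.8% in Zmynd8 KO, and 4585 of 12771 and 7782 of 21302 were lower. Of the 20 interferon-response genes 13 were higher and 3 lower in D/E-A (median 0.58), from Cmpk2, a mitochondrial kinase induced by interferon, at 1.55 to Isg15 at -0.43, and 10 were higher and none lower in Zmynd8 KO (median 0.31). Irf1 had 4100 reads in WT Zmynd8, 6430 in D/E-A and 7257 in Zmynd8 KO. Socs1, Socs3 and Usp18 were each higher in both lines. Of the 22 route genes 14 were higher and 3 lower in each line, with Jak2, the kinase of the interferon-gamma receptor, highest in D/E-A at 1.02.

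Ifnb1, in contrast, was lower in both lines. It had 439 reads in WT Zmynd8, 116 in D/E-A and 283 in Zmynd8 KO, which is 3.61-fold lower in D/E-A (limits 2.94 to 4.47) and 1.69-fold lower in Zmynd8 KO (1.45 to 1.97), and it was the lowest of the 22 route genes in both. Ifng had 46 reads in WT Zmynd8, 34 in D/E-A and 31 in Zmynd8 KO. Dpp4 had 375, 579 and 458 reads and Cxcr3 30, 46 and 50 in these libraries.

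**Figure D4:**
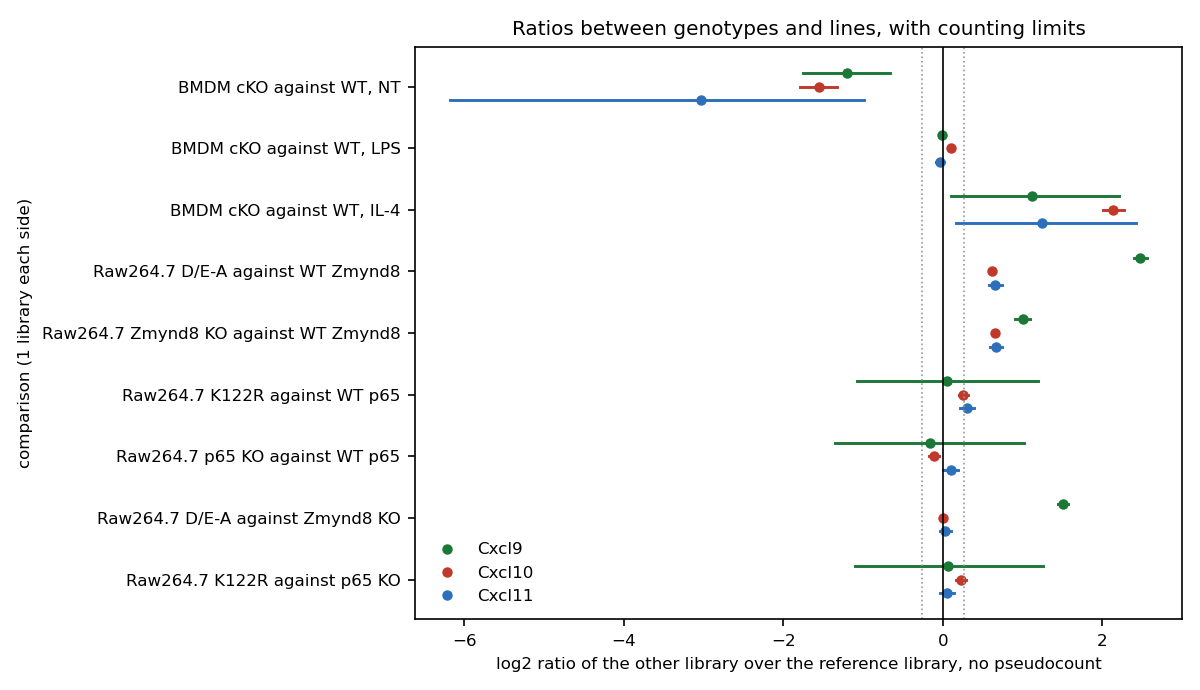
Ratios of the 3 ligands in 9 comparisons of genotypes or lines, on a log2 axis without a pseudocount, with bars for the 95% counting limits and dotted lines at a fold of 1.2. In BMDMs the points lie below 0 in NT, within the dotted lines after LPS and above 0 after IL-4, and Cxcl9 is the ligand farthest to the right in D/E-A over WT Zmynd8 (5.57-fold).

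The p65 lines differed little in the ligands. Cxcl9 was almost silent, with 15 reads in WT p65, 15 in K122R and 13 in p65 KO. Cxcl10 had 4432, 5102 and 3956 reads and Cxcl11 1836, 2178 and 1902. K122R over WT p65 was 1.04 for Cxcl9 (limits 0.473 to 2.28), 1.196 for Cxcl10 (1.15 to 1.25) and 1.23 for Cxcl11 (1.16 to 1.31), of which Cxcl11 alone was called higher, where 63.3% of the 19670 genes tested were called in either direction. That share is larger than the 1 in 3 of the ligands, and the Cxcl11 call was lost when library totals were used for scaling.

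In p65 KO no ligand was lower by a fold of 1.2. The ratio of p65 KO over WT p65 was 0.897 for Cxcl9 (limits 0.393 to 2.02), 0.924 for Cxcl10 (0.885 to 0.964) and 1.07 for Cxcl11 (1.00 to 1.14), none called, where 51.9% of 19879 genes were. K122R over p65 KO was 1.05, 1.17 and 1.04, none called, where 51.6% of 13381 genes were. With the median ratio or TMM, Cxcl10 was called higher there (log2 0.37 in each, against 0.23). Rela differed far more than the ligands did, with log2 differences of 1.92 in K122R and -1.02 in p65 KO against WT p65. Both comparisons with WT p65 share that library.

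Interferon-response genes were higher in K122R for 14 of 20 and lower for none (median 0.44), where 30.8% of all genes tested were higher, from Mx1 at -0.05 to Ciita at 2.04, the latter from 2 and 11 reads. In p65 KO 3 were higher and 3 lower. Ifnb1 had 55 reads in WT p65, 28 in K122R and 55 in p65 KO. Cxcr3 had 83, 204 and 187 reads in the same order, and Dpp4 had 1 read or none.

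Genes within 200 kb of Cxcl10 moved in both directions. Art3, an ADP-ribosyltransferase gene on the plus strand, spans chr5:92331799-92414628 and so lies antisense over Cxcl10 and Cxcl11, and whether the counting used strand was not given in the sources used here. It had 1 and 0 counts in NT (WT and cKO), 34 and 45 after LPS, 0 in both IL-4 libraries, and 87, 49 and 101 reads in WT Zmynd8, D/E-A and Zmynd8 KO. These counts are far under those of Cxcl10 and Cxcl11 after LPS, and without strand the reads of overlapping genes cannot be told apart.

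Of the other neighbours, Naaa, which encodes a lysosomal amidase, was higher in WT LPS than in NT (log2 2.10), as was the long non-coding RNA U90926 (3.10, from 0 to 188 counts), while Sdad1 (-1.95), Nup54 (-1.06) and Uso1 (-0.99) were lower. Scarb2 was at -0.46, above the median of all genes (-0.58). In untreated cKO cells Naaa (-0.47), Sdad1 (-0.53), Scarb2 (-0.44) and Uso1 (-0.31) were called lower than in WT, by less than Cxcl9 (-0.87) and Cxcl10 (-1.45). Of all genes tested there, 29.0% were lower. With LPS, U90926 (-1.18, 188 and 65 counts) was lower in cKO, and Uso1 (0.29) and Art3 (0.30) were higher, while no ligand was called. After IL-4 Naaa (-0.45) and Scarb2 (-0.29) were lower in cKO, and Sdad1 (0.31) and Nup54 (0.29) were higher, as the ligands were. The share of all genes tested that were higher there was 17.3%. In D/E-A Naaa (1.25), Uso1 (0.94), Nup54 (0.76) and Scarb2 (0.60) were higher, as the ligands were, and Art3 was lower (-0.75). Over all genes tested, 36.7% were higher in D/E-A and 33.8% in Zmynd8 KO. In Zmynd8 KO Naaa (0.80), Nup54 (0.75), Uso1 (0.58), Scarb2 (0.45) and Ppef2 (0.42) were higher, and U90926 (-0.31) and Gm42113 (-1.11, 27 and 13 reads) were lower. An unnamed antisense gene and Mir6415, with 4 and 3 reads in WT Zmynd8 and 2 and 0 in Zmynd8 KO, were also past the fold, and Art3 was at 0.09.

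Across the 6 BMDM libraries, the genes with the most similar profiles were named by the root mean square difference of log2 levels, after each gene was centred on its own mean, among 8225 genes with a mean of at least 10 CPM. This is a description of 6 libraries, in which the LPS response weighs most. Closest to Cxcl9 were Nos2 (0.51), the inducible nitric oxide synthase, Saa3 (0.74), an acute-phase protein, and Tgtp1 (0.83), an interferon-induced GTPase, against a median of 5.02 over all genes. Nos2 shared the fall with IL-4 in WT, from 229 to 35 counts, but had 187 counts in cKO IL-4.

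Closest to Cxcl10 were Ccl5 (0.28), another chemokine of T cells, Gbp5 (0.30) and Iigp1 (0.42). In WT and cKO, Ccl5 had 1414 and 507 counts in NT, 118165 and 104365 with LPS and 1176 and 3628 with IL-4, and so shared the order of Cxcl10 in NT and IL-4. Among the genes closest to Cxcl11 were Gbp4 (0.34), an interferon-induced guanylate-binding protein, and Clic5 (0.35). The ligands were not each other's nearest genes, since Cxcl11 was 14th in likeness to Cxcl10 (0.81) and 7th to Cxcl9 (1.31), and Cxcl9 was 172nd to Cxcl10 (1.91).

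**Figure D5:**
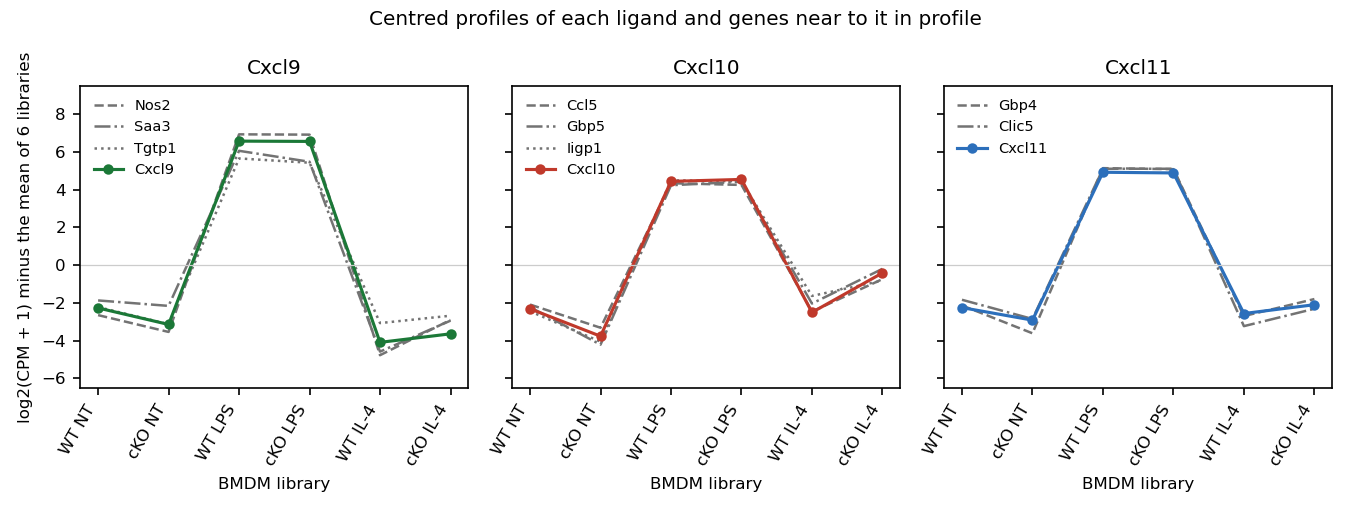
Profiles of the 3 ligands and of genes near to them in profile over the 6 BMDM libraries, as log2(CPM + 1) centred on each gene's mean. The lines rise together in the 2 LPS libraries, and Cxcl10, Ccl5, Gbp5 and Iigp1 are higher in cKO than in WT after IL-4 and lower in NT.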

How the data were processed

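RNA-seq of 6 BMDM and 6 Raw264.7 libraries was used, with 1 library per condition, and groups came from the labels. The authors deposited, for BMDMs, estimated counts and TPM per gene from polyA libraries aligned with TopHat to the mm10 transcriptome (the counter was not given in the sources used here). Estimated counts were rounded to whole numbers and divided by library totals. In 1 deposited TPM column 2 broken lines hold an entry number, so it was treated as a score until those lines were dropped. For Raw264.7 the authors deposited a signal, read counts over 1 size factor per library. Whole reads were recovered from the smallest steps of the values with a tolerance of 0.1 read: 100% of values came out whole, and 99.9958% in Zmynd8 KO, where the Zmynd8 value itself did not (116.475 deposited, 121.459 reads). The D/E-A table lists 12771 genes, all with at least 21 WT Zmynd8 reads, and genes it leaves out hold 0.291% of WT Zmynd8 reads.

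Genes were tested where the mean reached 10 counts (BMDMs, and between Raw264.7 tables) or a deposited value of 1 (within a Raw264.7 table), and called at a fold of 1.2 on log2(value + 1). With 1 library per condition no p-value was computed, and no model over the 6 BMDM libraries was fitted. Alternatives were a pseudocount of 0.1, no filter, a fold of 2, the median ratio of 2 libraries, edgeR 4.0.16 TMM, deposited TPM and library totals. Named genes were the highest and lowest member of each list per comparison, Ifnb1, Ifng, Irf1, Cxcr3, Dpp4, Socs1 and Rela, neighbours within 200 kb, and genes among the 3 nearest to each ligand, apart from items not reported here; other genes named were chosen after their values were seen. The ligands and the lists were chosen with earlier results of these data known. Scripts were tested on simulated data and used Python 3.11.15, pandas 2.3.3 and scipy 1.17.1. The authors' own fold changes and p-values were not used, nor were 2 columns of per-sample values that match no label, nor the other 35 samples. The column used for WT p65 is headed as LPS-treated wild type and does not name the knockout. Sequences and lengths are from RefSeq GRCm38.p6 and GENCODE vM21.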

Additional observations from a re-analysis of the deposited data

Results flagged for a closer look

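The genotype difference of each ligand had opposite signs in NT and after IL-4. The log2 difference of cKO and WT after IL-4 minus that in NT was 3.54 for Cxcl10, 1.33 for Cxcl9 and 1.13 for Cxcl11. Each rests on 4 libraries, 1 per condition, and the difference between the conditions was not tested. The labels number the IL-4 libraries apart from the NT libraries, and the part of preparation was not tested. The Cxcl9 and Cxcl11 values rest on 2 to 41 counts in the cKO libraries of NT and IL-4, and their sizes depend on the pseudocount of 1. With a pseudocount of 0.1, cKO and WT differed by -2.13 in NT and 1.06 after IL-4 for Cxcl11. For Cxcl9 these were -1.15 and 0.97, so the order of the 2 genes turned. Neutrophil markers were at 306 and 426 CPM in the IL-4 libraries and at 2.14 and 2.35 CPM in NT (WT and cKO), and their part was not tested.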

How the results depend on the processing

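The number of ligands called was recomputed 84 times over 15 comparisons. It was equal to the reported number or within 1.5 times of it in 73 and moved in 11. A fold of 2 left 1 of 3 called in cKO against WT in NT (Cxcl10), in cKO against WT after IL-4 (Cxcl10), in D/E-A and in Zmynd8 KO (Cxcl9 in each), 1 in IL-4 against NT for WT (Cxcl9) and for cKO (Cxcl10), and 0 in K122R against WT p65. That last comparison, with 1 ligand called, gave 2 with the median ratio and 0 with library totals, and K122R against p65 KO, with 0 called, gave 1 with the median ratio and 1 with TMM. Of 252 ligand values 5 changed sign, of which 1 had been called: Cxcl9 in cKO IL-4 against NT was -0.50 from counts and 1.03 from deposited TPM, where 26 counts in cKO IL-4 carried a TPM of 2.67 and 13 counts in WT IL-4 a TPM of 0.25. The cause was not tested. In WT IL-4 against NT, with 2 ligands called, Cxcl10 was called as well under the median ratio, TMM and deposited TPM. With 1 library in each condition no replicate could be left out. A paired fit of genotype over the 3 BMDM treatments was not run.

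Counting error limits the low ligands: Cxcl9 and Cxcl11 had 2 to 41 counts in cKO NT and in the IL-4 libraries, so their folds there have wide limits. The spread between mice or cultures is unknown throughout.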
